A study of Mus musculus with 4 samples.

Results

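The 10 genes described here, most of which cells switch on under stress, were followed through single-cell RNA libraries of murine lung adenocarcinoma. They were 5 heat shock genes (Hspa1a, Hspa1b, Hsph1, Dnajb1 and the constitutive Hspa8) and 5 immediate-early genes (Fos, Jun, Egr1, Atf3 and Ier2). They were taken by symbol, from a list drawn up with earlier results of these data known. All 10 were found among the 28006 features of the count matrices. Heat shock genes encode chaperones that hold and refold damaged proteins, and the transcription factor HSF1 turns many of them on when unfolded protein accumulates. Immediate-early genes are transcribed within minutes of a growth factor, a stress or tissue disruption, without new protein synthesis, and most encode transcription factors. Both groups are known to respond when solid tissue is cut and digested into single cells. The question addressed is whether a genotype difference seen in the tumour cells was also present in the other cells of the same libraries.

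Tumours were macrodissected from lungs 12 weeks after they were started with Ad5-mSPC-FlpO, an adenovirus that delivers Flp recombinase under the promoter of surfactant protein C, a gene of alveolar type II cells. Both genotypes, on a Mixed 129/B6 background, carried p53frt and Rosa-FSF-CreERT2, so that Flp deleted p53 and switched on a tamoxifen-dependent Cre in the infected cells. KPF1F2 mice carried Foxa1flox and Foxa2flox, while KP mice carried Foxa1flox/+ and Foxa2flox/+, and both received tamoxifen at 120 mg/kg by 4 daily injections at week 10. Cells were released with Dispase, DNase I and an agent labelled Collagen Type I, red cells were lysed, and cells were loaded either after or before magnetic (MACS) depletion of leukocytes (CD45) and endothelium (CD31). The 4 groups were thus KPF1F2 post-depletion, KP post-depletion, KPF1F2 pre-depletion and KP pre-depletion, with 1 library each. Without replicate libraries there is no test and no p-value. Intervals below are exact 95% intervals that cover counting error only. Mouse and genotype cannot be told apart, and the labels do not say which libraries came from the same mouse. The title of the KPF1F2 pre-depletion library opens with another number than those of the other 3 libraries, so genotype and that number cannot be told apart in the pre-depletion pair, whereas the post-depletion pair shares it.

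The libraries held 4415 to 8536 barcodes and 47805086 to 63010016 unique molecular identifiers (UMIs, each a counted RNA molecule), and 2475 to 3616 cells per library were kept. Any 2 libraries shared 6 to 16 barcodes, of which 1 to 4 were kept in both. Cell types were rebuilt here by clustering, and names carry "-like" for that reason. Epithelial-like cells numbered 1947 in KPF1F2 post-depletion, 3254 in KP post-depletion, 199 in KPF1F2 pre-depletion and 794 in KP pre-depletion. They carried the label's tumour markers, with Epcam at 642 to 835 and Nkx2-1 at 156 to 195 CPM (counts per 1000000 UMIs of the class in a library), and Ptprc, which encodes CD45, at 0.375 to 25.8 CPM. The Foxa1 and Foxa2 entries stood at 0 UMIs in these cells, and added entries hold pieces of both genes. The piece Foxa1_2 had 3.60 and 10.1 CPM in KPF1F2 post- and pre-depletion, against 16.9 and 16.8 CPM in KP post- and pre-depletion, while Foxa1_1 had 7.97 and 5.04 CPM in KPF1F2, against 2.74 and 4.11 CPM in KP. The position of the pieces relative to the deleted exons is not given in the sources used here, so they do not check the genotype labels.

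Promoters are shown for some members: the near-identical pair Hspa1a and Hspa1b, the co-chaperone gene Hsph1, and the immediate-early genes Fos and Jun. RefSeq promoter entries (build GRCm38.p6) matched 7 of the 10 members, the others being Hspa8, Egr1 and Ier2. Each sequence is the stretch of 250 bases before the first RefSeq start site, 5′ to 3′ on the gene's strand. They lie at chr17:34972157-34972406 for Hspa1a, chr17:34959239-34959488 for Hspa1b, chr5:149636337-149636586 for Hsph1 and chr4:95052223-95052472 for Jun, all on the minus strand, and at chr12:85473640-85473889 for Fos on the plus strand. Capitals mark a pair of inverted heat shock half-sites (GAANNTTC or TTCNNGAA, the letters of the HSF1 binding element), the core of a cyclic AMP response element in Fos (TGACG, or CGTCA on the other strand), and in Jun also a site resembling that of AP-1 (TGACATCA, or TGATGTCA on the other strand).
Hspa1a: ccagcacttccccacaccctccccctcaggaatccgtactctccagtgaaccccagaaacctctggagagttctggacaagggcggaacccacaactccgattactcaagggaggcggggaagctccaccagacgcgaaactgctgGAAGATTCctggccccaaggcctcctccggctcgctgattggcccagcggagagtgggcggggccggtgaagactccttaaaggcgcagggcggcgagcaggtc
Hspa1b: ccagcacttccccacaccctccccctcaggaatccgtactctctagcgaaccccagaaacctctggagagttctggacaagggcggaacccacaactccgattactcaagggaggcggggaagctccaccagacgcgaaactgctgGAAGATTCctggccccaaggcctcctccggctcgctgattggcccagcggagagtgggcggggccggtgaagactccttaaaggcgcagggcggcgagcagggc
Hsph1: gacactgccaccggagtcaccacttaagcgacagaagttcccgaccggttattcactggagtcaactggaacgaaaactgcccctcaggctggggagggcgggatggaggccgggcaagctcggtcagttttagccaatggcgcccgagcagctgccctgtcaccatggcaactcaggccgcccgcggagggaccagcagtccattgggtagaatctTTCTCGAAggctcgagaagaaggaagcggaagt
Fos: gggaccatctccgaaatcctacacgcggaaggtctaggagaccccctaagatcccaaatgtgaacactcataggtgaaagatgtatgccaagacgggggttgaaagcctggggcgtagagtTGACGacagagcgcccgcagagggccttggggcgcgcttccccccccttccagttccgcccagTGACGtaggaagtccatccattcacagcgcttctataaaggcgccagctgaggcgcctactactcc
Jun: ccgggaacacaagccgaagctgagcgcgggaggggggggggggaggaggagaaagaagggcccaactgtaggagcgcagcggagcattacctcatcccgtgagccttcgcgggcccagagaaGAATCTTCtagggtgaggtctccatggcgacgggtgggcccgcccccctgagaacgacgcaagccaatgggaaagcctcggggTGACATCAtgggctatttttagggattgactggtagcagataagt
The Hspa1a and Hspa1b stretches were identical at 247 of 250 bases and hold the half-site pair at the same place, starting 104 bases before the start site (position −104). In Hsph1 the pair started at −33 from the first start site, and at −54 from another RefSeq start site of the gene. By the gene coordinates given below, which reach chr5:149636376, the Hsph1 pair lies inside the annotated gene. In Jun the pair started at −128, upstream of the AP-1-like site at −45. The Fos stretch held the CRE core at −129 and −66, and those of Atf3 and Dnajb1, not printed, at −7 and −11. No half-site pair was found in the Fos, Atf3 or Dnajb1 stretches. Such short motifs are common: the half-site pair was found in 12.84% of the 32851 mouse promoters of the same window length, the CRE core in 17.77%, the Jun-type site in 2.928%, the AP-1 site (TGACTCA or TGAGTCA) in 4.463% and the CArG box (the site of serum response factor) in 1.467%. The last of these motifs, and the AP-1 site, were in none of the 7 matched stretches. Sites further upstream than 250 bases, or in the unmatched Hspa8, Egr1 and Ier2, could not be seen. Absence from a stretch is therefore not absence from the gene's control region. A match is a description of letters, not of a bound site, and no link of these motifs to the levels below was tested.

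The genes were counted from reads near the 3′ end of transcripts. Hspa1a (ENSMUSG00000091971, chr17:34969190-34972156, minus strand, 1 exon) and Hspa1b (ENSMUSG00000090877, chr17:34956436-34959238, minus strand, 1 exon) are neighbouring copies that encode nearly the same inducible HSP70 chaperone. In the last 500 bases of their transcripts 0 of 411 windows of 90 bases were shared, while 59.67% of the windows in the rest of Hspa1a and 64.09% in the rest of Hspa1b were shared. Reads far from the 3′ end could thus match both copies, and the 2 genes are given side by side throughout. The other members lie apart: Hsph1 (ENSMUSG00000029657) at chr5:149614287-149636376, Dnajb1 (ENSMUSG00000005483) at chr8:83608193-83612653, Hspa8 (ENSMUSG00000015656) at chr9:40800984-40810087, Fos (ENSMUSG00000021250) at chr12:85473890-85477273, Jun (ENSMUSG00000052684) at chr4:95049034-95052222, Atf3 (ENSMUSG00000026628) at chr1:191170296-191218039, Ier2 (ENSMUSG00000053560) at chr8:84661331-84662852 and Egr1 (ENSMUSG00000038418) on chromosome 18. Jun and Ier2 also have 1 exon. Positions are from GENCODE M21 (GRCm38).

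In the epithelial-like cells, the inducible HSP70 genes were 3.55 to 4.68 times as high in KPF1F2 as in KP over both depletion states. The other heat shock members differed less. Of the 5 immediate-early members 4 were lower, each by less than 2-fold. The wider immediate-early list described below did not share that direction: 16 of 31 genes were higher in KPF1F2 post-depletion and 18 of 33 pre-depletion. The share of all genes lower in KPF1F2 was not counted. Hspa1a had 948 CPM in KPF1F2 post-depletion and 617 CPM in KPF1F2 pre-depletion, against 209 CPM in KP post-depletion and 164 CPM in KP pre-depletion. Both KPF1F2 levels lay above both KP levels. The ratio of KPF1F2 to KP was 4.53 (4.43 to 4.63) post-depletion and 3.77 (3.59 to 3.96) pre-depletion. Hspa1b had 621 and 485 CPM in KPF1F2 post- and pre-depletion, against 133 and 137 CPM in KP, with ratios of 4.68 (4.55 to 4.82) and 3.55 (3.36 to 3.75). For Hspa1b too, both KPF1F2 levels lay above both KP levels, and the KP pair nearly coincided. The share of all genes that separate by genotype in this way was not counted, here or for the members below.

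Hsph1, a large HSP110-family chaperone that helps HSP70 release its nucleotide, had 70.7 and 75.4 CPM in KPF1F2 post- and pre-depletion, against 44.7 and 37.7 CPM in KP. Its ratio was 1.58 (1.49 to 1.67) post-depletion and 2.00 (1.77 to 2.26) pre-depletion. Dnajb1, the HSP40 partner that delivers clients to HSP70, had 173 and 193 CPM in KPF1F2, against 138 and 108 CPM in KP, with ratios of 1.25 (1.21 to 1.30) and 1.79 (1.66 to 1.93). The KPF1F2 libraries were again the higher ones for both co-chaperones, by less than for HSP70 itself. Hspa8, the constitutive HSP70, had 1955 and 1912 CPM in KPF1F2 and 1796 and 1578 CPM in KP, with ratios of 1.09 (1.08 to 1.10) and 1.21 (1.18 to 1.24). Of the heat shock members, Hspa1a and Hspa1b, or 2 of 5, were at least 2-fold higher post-depletion on the log2(CPM + 1) scale, where 4.86% of the 5723 genes tested (those averaging 20 CPM or above) were, and the same 2 pre-depletion, where 5.08% of 5707 genes were. In both states at once 2.98% of 5473 genes were at least 2-fold higher.

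Among the immediate-early members, Fos, the AP-1 subunit that needs a Jun partner, had 1670 and 1573 CPM in KPF1F2 post- and pre-depletion, against 2113 and 1729 CPM in KP. Jun, its partner, had 1465 and 1014 CPM in KPF1F2, against 1946 and 1468 CPM in KP, with ratios of 0.753 (0.745 to 0.760) post-depletion and 0.691 (0.671 to 0.711) pre-depletion. The pre-depletion KP level of Jun was about that of the post-depletion KPF1F2 library, so the 4 libraries did not separate by genotype. Egr1, a zinc finger factor induced by growth signals, had 763 and 722 CPM in KPF1F2 and 976 and 797 CPM in KP; its pre-depletion log2 fold of −0.14 was 0.09 in cells with a CRE-ERT2 UMI and 0.05 without shallow clusters. Ier2, a small nuclear protein of the early response, had 377 and 397 CPM in KPF1F2, against 699 and 610 CPM in KP, with ratios of 0.540 (0.530 to 0.550) and 0.652 (0.622 to 0.683). Ier2 was the immediate-early member with the widest separation, both KPF1F2 libraries lying below both KP libraries. Atf3, a stress-induced member of the ATF/CREB family, went the other way, with 750 and 556 CPM in KPF1F2 and 581.9 and 384 CPM in KP. In neither state was any of the 5 at least 2-fold different; at least 2-fold lower were 3.83% of all genes tested post-depletion and 3.28% pre-depletion.

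**Figure D1:**
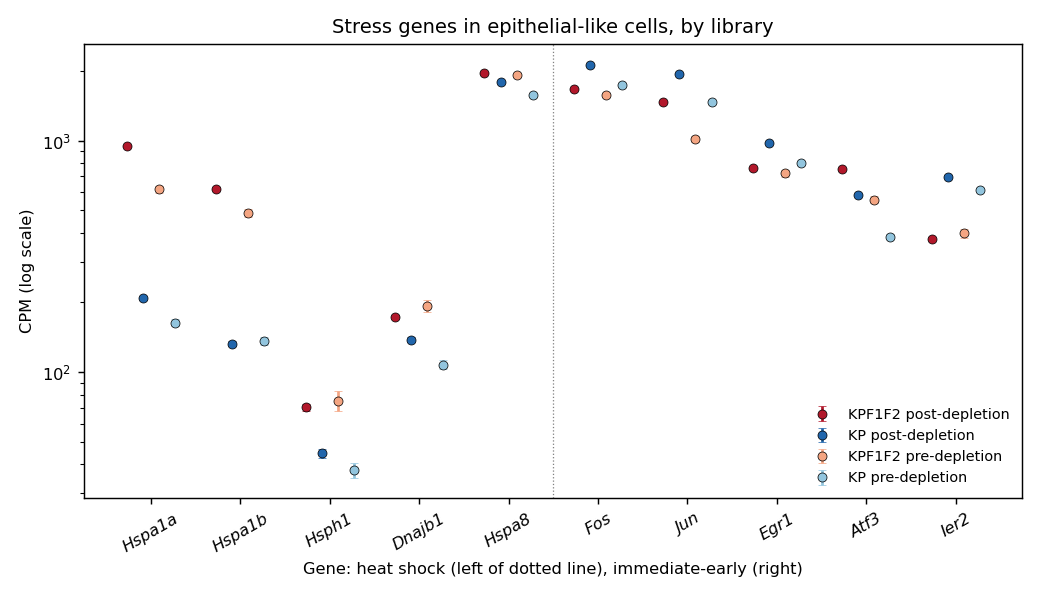
Level of each of the 10 genes in epithelial-like cells (CPM, log axis) in the 4 libraries, 1 point per library with its exact 95% Poisson interval, which covers counting error only. Hspa1a and Hspa1b sit 3.55 to 4.68 times as high in the KPF1F2 library of each depletion state, while Fos, Jun, Egr1 and Ier2 sit lower there than in the KP library of the same depletion state.

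As medians over members, the log2 fold of KPF1F2 over KP was 0.65 post-depletion and 0.98 pre-depletion for the heat shock members, and −0.36 and −0.14 for the immediate-early members. The median over all genes tested was 0.06 post-depletion and 0.10 pre-depletion. The median log2 fold of post- over pre-depletion was 0.03 in KPF1F2 and 0.24 in KP for heat shock members, and 0.09 in KPF1F2 and 0.29 in KP for immediate-early members. No member reached 2-fold between depletion states in either genotype, where 0.525% of genes in KPF1F2 and 0.764% in KP were at least 2-fold higher post-depletion, and 1.23% and 0.16% at least 2-fold lower. The largest of these folds on the log2 scale was 0.62 for Hspa1a in KPF1F2 and 0.60 for Atf3 in KP. Jun was also higher after depletion in both genotypes, at a log2 fold of 0.53 in KPF1F2 and 0.41 in KP. Each of these libraries stands in 2 of the comparisons, so the genotype and depletion folds share samples.

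The difference in Hspa1a was also seen in the share of cells that carried it. With each cell thinned to 2000 UMIs, 58.2% (55.9 to 60.6) of epithelial-like cells of KPF1F2 post-depletion and 49.7% (42.4 to 57.1) of KPF1F2 pre-depletion had a UMI of Hspa1a, against 23.6% (22.1 to 25.2) of KP post-depletion and 18.4% (15.6 to 21.5) of KP pre-depletion. Unthinned, the shares were 81.1% and 80.9% in KPF1F2 and 48.7% and 46.5% in KP, at median depths of 17486 and 21240 UMIs in KPF1F2 and 9606.5 and 16022 UMIs in KP. At least 3 of the 5 heat shock genes were seen in 49.0% and 41.4% of thinned KPF1F2 cells post- and pre-depletion, against 14.8% and 12.0% of thinned KP cells. For immediate-early genes these shares were 73.2% and 62.8% in KPF1F2, against 77.1% and 65.0% in KP, so the genotypes were close. The summed heat shock level per cell had a median of 31.1 and 29.9 UMIs per 10000 in KPF1F2 post- and pre-depletion, against 17.5 and 15.3 in KP. The summed immediate-early level had a median of 46.7 and 33.4 UMIs per 10000 in KPF1F2 and 55.2 and 36.3 in KP, and its upper tail was longer in KP: 1 cell in 10 exceeded 172 in KP post-depletion, against 104 in KPF1F2 post-depletion.

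**Figure D2:**
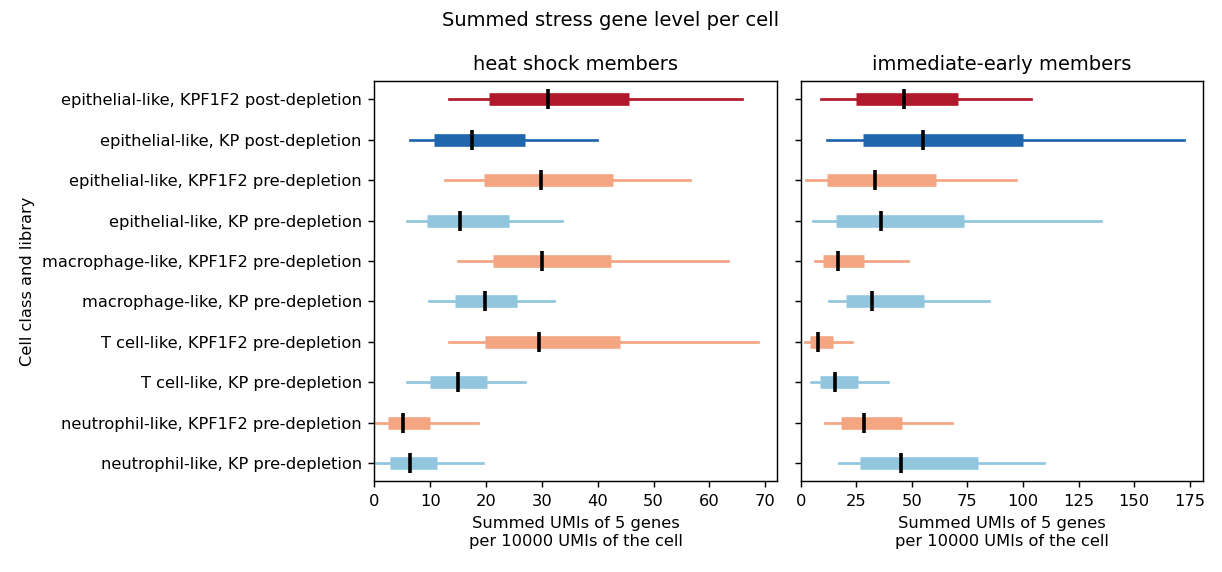
Summed UMIs of the 5 heat shock genes and of the 5 immediate-early genes per 10000 UMIs of a cell, for epithelial-like cells in the 4 libraries and for macrophage-like, T cell-like and neutrophil-like cells pre-depletion. Points are medians over cells, thick bars span the middle 50% and thin bars the middle 80%. Heat shock medians are higher in KPF1F2 in epithelial-like, macrophage-like and T cell-like cells, and not in neutrophil-like cells.

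The epithelial-like cells of the genotypes fell mostly into different clusters, so the fold also compares clusters. KP epithelium lay mainly in clusters 0, 3, 4 and 6, and KPF1F2 epithelium in clusters 2, 8 and 0. Within cluster 0, shared by both, Hspa1a had 705 CPM in 371 KPF1F2 post-depletion cells and 65.4 CPM in 702 KP post-depletion cells. Cluster 23 held 54 cells of each post-depletion library, with Hspa1a at 724 CPM in KPF1F2 and 175 CPM in KP. In both shared clusters the KPF1F2 level was therefore the higher one. The immediate-early sum did not follow one direction, with 4743 CPM in KPF1F2 and 3553 CPM in KP in cluster 0, against 4522 CPM in KPF1F2 and 5060 CPM in KP in cluster 23.

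Clusters of one genotype also varied. The main KPF1F2 cluster, number 2, had Hspa1a at 1439 CPM post-depletion (914 cells) and 820 CPM pre-depletion (90 cells), and cluster 8, with 385 cells post-depletion, had 598 CPM. In KP post-depletion, Hspa1a spanned 60.8 CPM in cluster 12 to 525 CPM in cluster 4, and every one of these was below the level in cluster 8 of KPF1F2. Cluster 4 (614 KP post-depletion cells) stood apart for immediate-early genes, whose sum reached 14262 CPM post-depletion and 13466 CPM in its 120 KP pre-depletion cells. Jun alone had 5862 CPM there post-depletion. These cells were shallow, at a median of 2581.5 UMIs, with a median of 11.5% mitochondrial UMIs, against 3.01% in cluster 3 and 5.51% in cluster 6 of the same library. The part of depth and mitochondrial share in that level was not tested. Without the shallow clusters 4, 12 and 25, the median log2 fold of immediate-early members post-depletion was −0.27.

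**Figure D3:**
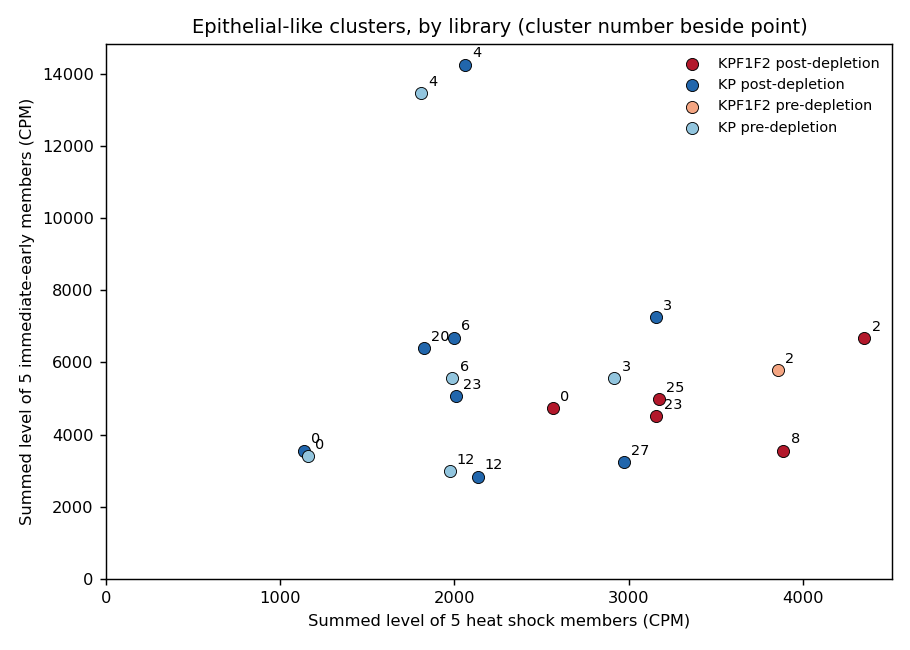
Summed heat shock level against summed immediate-early level (CPM) for each epithelial-like cluster with at least 50 cells in a library, 1 point per cluster and library. KPF1F2 points span heat shock sums of 2565 to 4355 CPM and KP points 1136 to 3155 CPM, and the points at 14262 and 13466 CPM of immediate-early sum are cluster 4 of the KP libraries.

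Cells other than epithelium also differed between the pre-depletion libraries. Flp was delivered under an epithelial promoter, and 8 other classes had at least 50 cells in both libraries. In T cell-like cells 4 heat shock members and no immediate-early member were at least 2-fold higher in KPF1F2, where 1.16% of genes tested were. These counts were 3 and 0 in B cell-like cells (background 1.66%), 3 and 0 in macrophage-like cells (1.8%) and 4 and 0 in type 1 dendritic-like cells (1.74%). They were 2 and 1 in alveolar macrophage-like cells (2.03%), 3 and 1 in endothelial-like cells (4.91%), 2 and 0 in monocyte-like cells (5.05%) and 0 and 0 in neutrophil-like cells (3.5%). At least 2-fold lower were 2 immediate-early members in T cell-like cells (background 1.77%), 2 in B cell-like cells (3.6%), 1 in macrophage-like cells (2.1%) and 3 in type 1 dendritic-like cells (4.86%). In B cell-like cells both, Fos and Jun, fell short of 2-fold at Leiden resolution 0.5 (log2 folds of −0.15 and −0.43), as did Fos in T cell-like cells at 5000 or more UMIs (−0.97). None was at least 2-fold lower in alveolar macrophage-like (0.671%), endothelial-like (4.62%), monocyte-like (9.98%) or neutrophil-like cells (25%). In 7 of the 8 classes the 2 to 4 of 5 heat shock members thus stood above the background share, which is a description without a test. All 5 members of each group averaged 20 CPM or above in every class, except Hsph1 in neutrophil-like cells.

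Hspa1a and Hspa1b were at least 2-fold higher in KPF1F2 in 7 of the 8, the exception being neutrophil-like cells. In T cell-like cells Hspa1a had 383 CPM (1015 UMIs in 556 cells) in KPF1F2, against 5.62 CPM (21 UMIs in 704 cells) in KP, a ratio of 68.1 (44.3 to 110). In B cell-like cells it had 216 CPM (379 UMIs) in KPF1F2 and 3.96 CPM (3 UMIs) in KP, a ratio of 54.7 (18.6 to 266). The lymphocytes of the KP library thus carried almost no Hspa1a, and their ratios were above that of the epithelium. Thinned to 2000 UMIs, 18.3% (15.1 to 21.9) of T cell-like cells of KPF1F2 had a UMI of Hspa1a, against 1.25% (0.543 to 2.46) of those of KP; unthinned the shares were 23.0% and 2.41%.

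Endothelial-like cells and the myeloid classes other than neutrophil-like cells differed in the same direction from other starting levels. Hspa1a had 390 CPM in KPF1F2 and 39.2 CPM in KP in macrophage-like cells, a ratio of 9.95 (8.88 to 11.2). It had 107 CPM in KPF1F2 and 7.59 CPM in KP in alveolar macrophage-like cells, and 374 CPM in KPF1F2 and 23.3 CPM in KP in type 1 dendritic-like cells. In monocyte-like cells it had 258 CPM in KPF1F2 and 50.3 CPM in KP. The ratios of these 4 classes lay between 5.13 (3.102 to 9.03) in monocyte-like and 16.1 in type 1 dendritic-like cells; that of monocyte-like cells overlapped the epithelial pre-depletion ratio of 3.77 within counting error, and those of the other 3 of these classes lay above it. Endothelial-like cells had the most Hspa1a of these classes in both libraries, 1648 CPM in KPF1F2 and 372 CPM in KP, a ratio of 4.43 (3.90 to 5.03). Hspa1b gave the same picture, with 396 CPM in KPF1F2 and 6.42 CPM in KP in T cell-like cells, 245 and 10.6 CPM in macrophage-like cells, and 1121 and 142 CPM in endothelial-like cells.

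Neutrophil-like cells gave no clear direction. Hspa1a had 25.03 CPM in KPF1F2, from 41 UMIs in 30 of 525 cells, against 49.5 CPM in KP, from 32 UMIs in 5 of 188 cells, a ratio of 0.506 (0.311 to 0.829). The median log2 fold of all genes tested in neutrophil-like cells was −0.52, against −0.11 to 0.04 in the other 7 classes outside the epithelium. The thinned share of cells with a UMI went the other way, at 4.68% (2.96 to 7.001) in KPF1F2 and 1.17% (0.142 to 4.16) in KP. Hspa1b had 54.9 CPM in KPF1F2 and 60.3 CPM in KP. With doublets kept, the log2 folds were 0.93 for Hspa1a and 1.09 for Hspa1b. Neutrophil-like cells came from cluster 9 (226 KPF1F2 and 156 KP cells) and cluster 13 (299 KPF1F2 and 32 KP cells), at median depths of 2914 UMIs in KPF1F2 and 3184 UMIs in KP. No class lacks these genes by nature, and free RNA in droplets also gives UMIs. The lowest thinned share of any class was 0.625% (0.0158 to 3.43), 1 of 160 cells, in B cell-like cells of KP at a median of 4034 UMIs per cell, with alveolar macrophage-like and neutrophil-like cells of KP both at 1.17%.

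**Figure D4:**
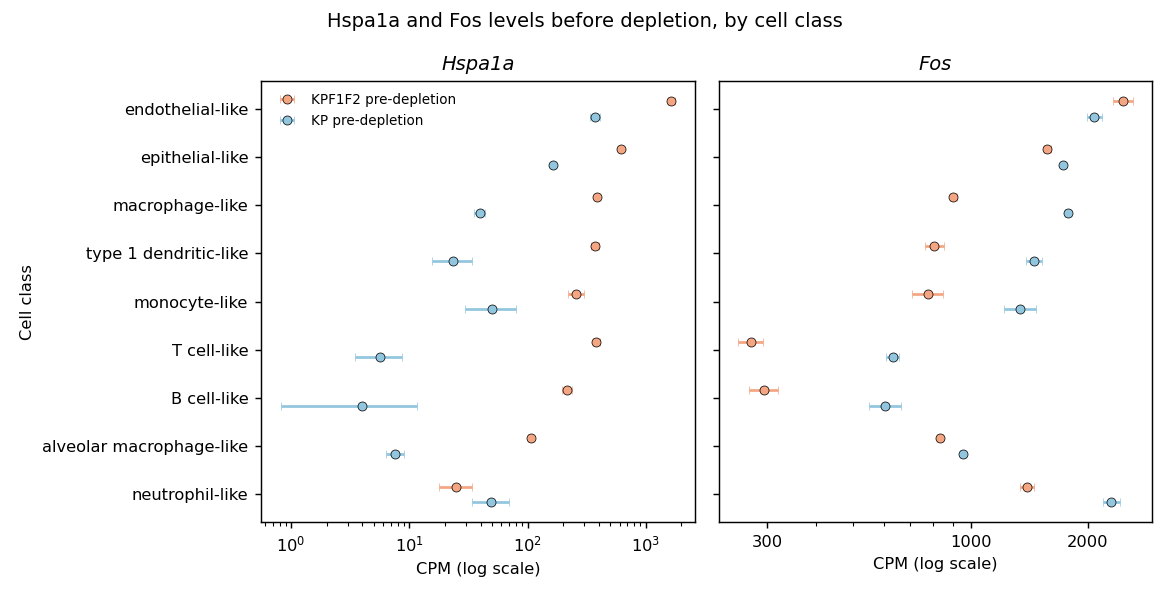
Level of Hspa1a and of Fos (CPM, log axis) in 9 cell classes of the pre-depletion libraries, KPF1F2 above KP within each class, with exact 95% Poisson intervals for counting error. Hspa1a is higher in KPF1F2 in 8 of the 9 classes, while Fos is lower in KPF1F2 in 8 of the 9.

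The co-chaperones followed HSP70 more weakly in most classes outside the epithelium, but not in all. Dnajb1 was at least 2-fold higher in KPF1F2 in 4 of the 8 classes and Hsph1 in 3, and Hspa8 in none. In T cell-like cells Dnajb1 had 279 CPM in KPF1F2 and 86.7 CPM in KP, a ratio of 3.22 (2.82 to 3.68), and Hsph1 had 126 CPM in KPF1F2 and 49.5 CPM in KP, a ratio of 2.55 (2.13 to 3.07). In endothelial-like cells Hsph1 had 191 CPM in KPF1F2 and 36.7 CPM in KP, a ratio of 5.21 (3.503 to 7.91), the highest of the 8 for this gene. That ratio was above the 4.43 (3.90 to 5.03) of Hspa1a in the same class, with overlapping intervals, and below the 7.90 of Hspa1b. In post-depletion fibroblast-like cells the ratio of Dnajb1 was 2.99, close to the 3.03 of Hspa1a. The log2 fold of Hspa8 was 0.98 in B cell-like cells, and −0.30 in neutrophil-like cells, where the median of all genes was −0.52.

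Immediate-early genes in these classes were mostly lower in the KPF1F2 library. Fos and Jun were lower in KPF1F2 in 7 of 8 classes each, Atf3 and Ier2 in 6 and Egr1 in 5. Of these, Jun in monocyte-like, Egr1 in T cell-like, Atf3 in T cell-like and B cell-like, and Ier2 in monocyte-like and neutrophil-like cells differed by less than counting error. The median log2 fold of all genes tested was itself slightly below 0 in several classes. It was −0.11 in type 1 dendritic-like, −0.10 in monocyte-like, −0.06 in B cell-like, −0.03 in macrophage-like and −0.01 in T cell-like cells. In alveolar macrophage-like cells it was 0.03 and in endothelial-like cells 0.04. The share of all genes lower in as many classes was not counted. Neutrophil-like cells count as lower for all 5, but the median log2 fold of all genes tested there was −0.52. The log2 folds there were −0.72 for Fos, −0.855 for Jun, −0.79 for Egr1, −0.66 for Atf3 and −0.07 for Ier2. In T cell-like cells Jun had 162 CPM in KPF1F2 and 582.02 CPM in KP, a ratio of 0.278 (0.250 to 0.308), and Fos had 273 CPM in KPF1F2 and 630 CPM in KP, a ratio of 0.433 (0.397 to 0.470). T cell-like cells therefore had more heat shock RNA and less Fos and Jun in KPF1F2 than in KP. The same held per cell: their median heat shock sum was 29.5 per 10000 UMIs in KPF1F2 and 14.9 in KP, and their immediate-early sum 7.83 in KPF1F2 and 15.6 in KP. Macrophage-like cells had median heat shock sums of 30.03 in KPF1F2 and 19.7 in KP, and immediate-early sums of 16.8 in KPF1F2 and 32.0 in KP. Endothelial-like cells were the class in which all 10 members were higher in KPF1F2, with Atf3 at 792 CPM in KPF1F2 and 287 CPM in KP, and Egr1 at 1943 CPM in KPF1F2 and 1028 CPM in KP. Egr1 in alveolar macrophage-like cells stood out in the other direction from most classes, at 146 CPM in KPF1F2 and 19.9 CPM in KP, a ratio of 7.34 (6.55 to 8.23). Its log2 fold of 2.81 was 1.43 with doublets kept, and 2.32 to 2.95 under the other 6 alternatives. Alveolar macrophage-like cells of KP came in part from clusters 19 and 29 (193 and 73 cells), whereas 601 of the 694 KPF1F2 cells lay in cluster 1; within cluster 1 Egr1 had 132 CPM in KPF1F2 and 17.7 CPM in KP.

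**Figure D5:**
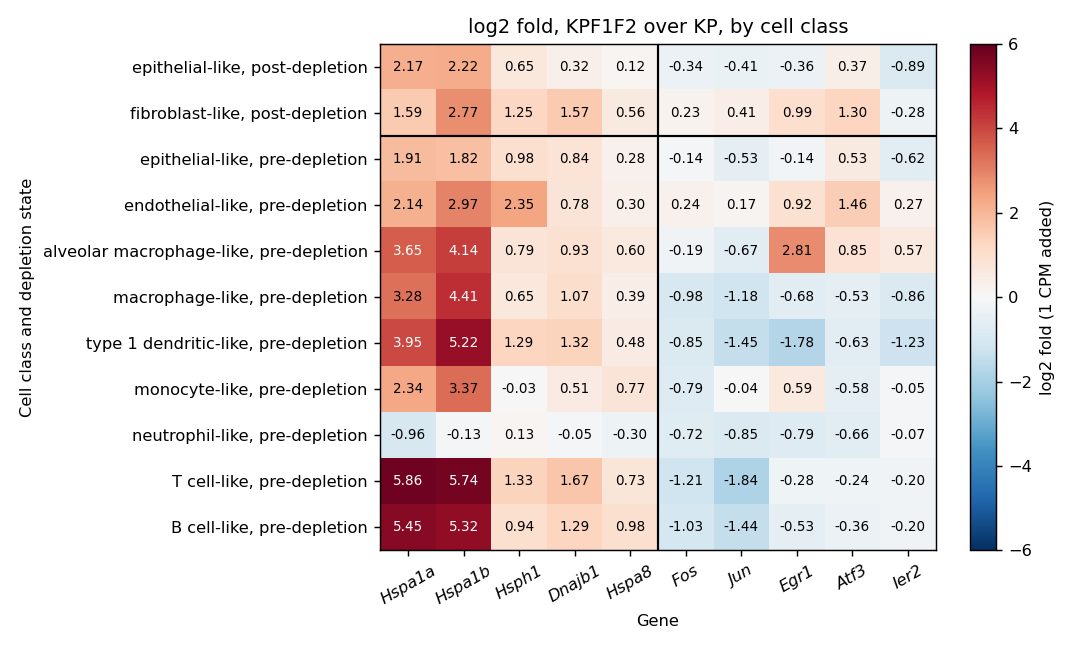
Log2 fold of KPF1F2 over KP for the 10 genes (columns) in epithelial-like and fibroblast-like cells post-depletion and in 9 classes pre-depletion (rows); red is higher in KPF1F2 and blue lower. Hspa1a and Hspa1b are red in every row but that of neutrophil-like cells, and Fos and Jun are blue in most rows.

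The post-depletion libraries, which share the title number, held fibroblast-like cells as a class outside the epithelium. Hspa1a had 584 CPM in 423 KPF1F2 cells and 193 CPM in 103 KP cells, a ratio of 3.03 (2.65 to 3.47), and Hspa1b had 341 CPM in KPF1F2 and 49.0 CPM in KP, a ratio of 6.95 (5.36 to 9.15). Of the heat shock members 4 of 5 were at least 2-fold higher, where 5.54% of genes tested were, and of the immediate-early members only Atf3 was, with none at least 2-fold lower (background 6.51%). The fibroblast-like cells of KPF1F2 lay mostly in cluster 14 (256 cells), those of KP in cluster 18 (74 cells). Within cluster 18, which also carries mural cell markers, Hspa1a had 994 CPM in KPF1F2 and 216 CPM in KP. Fibroblast-like Hspa1a stood at 584 CPM post-depletion and 1042 CPM pre-depletion in KPF1F2, and no member reached 2-fold between these, where 1.3% of genes tested did in the higher and 1.37% in the lower direction. Mesothelial-like cells, with 83 cells in KPF1F2 post-depletion only, had the highest Hspa1a level of any class there, 2241 CPM.

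The mitochondrial share, a measure of cell quality, was lower in KPF1F2 pre-depletion in most classes, but not in all. Outside the epithelium the median mitochondrial share pre-depletion was 2.06% in KPF1F2 and 3.24% in KP, and in T cell-like cells 1.84% in KPF1F2 and 3.27% in KP; in epithelial-like cells it was 3.77% in KPF1F2 and 4.09% in KP. Their part in the heat shock difference was not tested. Markers of other cells within the epithelial-like sums were low for T cells, at a summed 1.72 and 9.34 CPM in KPF1F2 post- and pre-depletion and 1.48 and 12.2 CPM in KP, and of its 10 genes among the features 2 were at 0 in each KPF1F2 library, 4 in KP post-depletion and none in KP pre-depletion. The B cell list summed to 34.1 and 149 CPM in KPF1F2 and 18.1 and 42.4 CPM in KP, with 4 of 8 at 0 in each post-depletion library and none pre-depletion. The endothelial list summed to 13.6 and 31.0 CPM in KPF1F2 and 22.2 and 26.7 CPM in KP, with at most 1 of 10 at 0. The macrophage list summed to 343 and 346 CPM in KPF1F2 and to 2156 and 1654 CPM in KP, with 2 of 12 at 0 in KP post-depletion. Apoe alone gave 270 and 233 CPM of it in KPF1F2 and 2058 and 1482 CPM in KP, while C1qa had at most 7.66 CPM in any library. The mesothelial list summed to 755 and 588 CPM in KPF1F2, against 189 and 131 CPM in KP, so that it was higher in KPF1F2 as Hspa1a was. Of that sum, C3 gave 490 and 432 CPM in KPF1F2 and 62.4 and 93.9 CPM in KP, and Msln 263 and 154 CPM in KPF1F2 and 125 and 35.3 CPM in KP, while the mesothelial markers Wt1 and Upk3b were at 0 to 0.530 CPM in every library. The plasma cell list summed to 444 and 1292 CPM in KPF1F2 and 760 and 576 CPM in KP, with Jchain at 583 CPM in KPF1F2 pre-depletion, against 2.21 CPM in KP pre-depletion and under 1 CPM in both post-depletion libraries. The part of these lists in the Hspa1a difference was not tested.

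The order of classes was read from the mean log2(CPM + 1) over the pre-depletion libraries, with the gap between those libraries as spread. Only classes with at least 50 cells in both were ranked, so fibroblast-like cells (99 in KPF1F2, 30 in KP) were left out. Hspa1a was highest in endothelial-like cells (mean 9.62, gap 2.14) and epithelial-like cells (8.32, gap 1.91), and lowest in alveolar macrophage-like cells (4.93, gap 3.65). No neighbours in that order differed by more than the larger of their gaps, and the same was true of Hspa1b, Dnajb1 and Hspa8. Among the ranked classes, endothelial-like cells came first for 9 of the 10 members, and for Dnajb1 just after T cell-like cells, at 7.291 and 7.292. In KPF1F2 pre-depletion, the unranked fibroblast-like cells exceeded endothelial-like cells for Fos (3571 against 2463 CPM), Egr1 (2456 against 1943 CPM) and Dnajb1 (576 against 204 CPM). For every other member the fibroblast-like level was the lower one. For Fos the order was endothelial-like (11.15), neutrophil-like (10.81), epithelial-like (10.69), macrophage-like (10.31), type 1 dendritic-like (10.08), monocyte-like (10.00), alveolar macrophage-like (9.80), B cell-like (8.72) and T cell-like (8.70). Of those steps the one between alveolar macrophage-like and B cell-like cells exceeded both gaps. For Jun it was the step from endothelial-like (11.47) to epithelial-like (10.25), for Atf3 that from monocyte-like (7.57) to T cell-like (5.68), and for Hsph1 that from monocyte-like (5.17) to neutrophil-like (3.19). Egr1 had 2 such steps and Ier2 had 3, with endothelial-like cells clear of the next class for Ier2 (10.36 against 9.78).

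Over the 24 sums of a class in a library, which share 4 libraries, the log levels of Hspa1a and Hspa1b had a Pearson r of 0.96. Next to Hspa1a came Dynll1 (0.90), and Hspa1b was followed by Dynll1 (0.87) and Dnajb1 (0.80). Dnajb1 was most like Dnajb4 (0.81) and Hsp90aa1 (0.81), both heat shock genes. Fos was most like Mbnl2 (0.91), Nf1 (0.89) and Jun (0.89), and Egr1 most like Slc44a1 (0.94) and Jun (0.89). Atf3 was most like Anxa3 (0.93) and Ier2 most like Zfp740 (0.83) and Ppp1r15a (0.82), while Hsph1 came nearest to Dpysl2 (0.86) and Hspa8 to Capn2 (0.85). Within the immediate-early group r ran from 0.16 (Atf3 and Ier2) to 0.89 (Fos and Jun), and within the heat shock group from 0.29 (Dnajb1 and Hspa8) to 0.96. Across groups the lowest was −0.21 for Hspa8 and Ier2. These coefficients cover 6069 genes that averaged 20 CPM or above and describe classes and libraries together.

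The wider lists set the members beside their pathways in epithelial-like cells. The list of 29 genes of the heat shock response includes the 5 heat shock members, and 25 of the 29 had 20 CPM or more. Of these, 6 were at least 2-fold higher in KPF1F2 post-depletion (4.86% over all genes tested) and 5 pre-depletion (5.08%). Hspa1a and Hspa1b were among them in both states. None was at least 2-fold lower (3.83% and 3.28% over all genes). The list's median log2 fold was 0.27 post-depletion and 0.53 pre-depletion, against 0.06 and 0.10 over all genes. Besides the members, small heat shock proteins had the largest folds of the list. Hspb1 had 915 and 875 CPM in KPF1F2 post- and pre-depletion, against 215 and 148 CPM in KP. Cryab had 373 and 421 CPM in KPF1F2, against 79.0 and 83.0 CPM in KP. Bag3, an HSP70 co-chaperone that HSF1 induces, had 66.7 and 63.1 CPM in KPF1F2 and 30.2 and 28.1 CPM in KP, while Fkbp4, a co-chaperone of HSP90, was lower in KPF1F2 at 197 and 203 CPM, against 341 and 332 CPM in KP. The list was therefore uneven, and its genes at least 2-fold higher included Hspa1a, Hspa1b and 2 small heat shock proteins.

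The list of 35 immediate-early genes includes the 5 immediate-early members. Post-depletion 31 had 20 CPM or more, with 3 at least 2-fold higher in KPF1F2 (4.86% over all genes tested) and 2 lower (3.83%). Pre-depletion 33 did, with 4 higher (5.08%) and 2 lower (3.28%). The orphan nuclear receptor gene Nr4a2 had 71.8 and 43.7 CPM in KPF1F2 post- and pre-depletion and 7.33 and 5.19 CPM in KP. Klf4 had 475 and 355 CPM in KPF1F2 and 222 and 169 CPM in KP. Btg2, an antiproliferative p53 target, went the other way with 247 and 287 CPM in KPF1F2 and 624 and 509 CPM in KP, as did Rhob at 95.9 and 101 CPM in KPF1F2 and 227 and 156 CPM in KP. The immediate-early list thus held genes in both directions. Its median log2 fold was 0.10 post-depletion and 0.16 pre-depletion, against 0.06 and 0.10 over all genes.

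Chaperones of the endoplasmic reticulum and other stress lists were also compared. Beside the counts that follow, 4.86% of all genes tested were at least 2-fold higher post-depletion and 5.08% pre-depletion. At least 2-fold lower were 3.83% post-depletion and 3.28% pre-depletion. Hspa5, the HSP70 of the endoplasmic reticulum, had 947 and 763 CPM in KPF1F2 post- and pre-depletion, against 754 and 611 CPM in KP, with ratios of 1.26 (1.24 to 1.27) and 1.25 (1.21 to 1.30). Of 18 genes of the unfolded protein response, 1 was at least 2-fold higher post-depletion, near the share over all genes, and 5 pre-depletion. The post-depletion gene was Sdf2l1, at 43.1 CPM in KPF1F2 and 19.5 CPM in KP. The list's median log2 fold was 0.37 post-depletion and 0.62 pre-depletion, and no gene was at least 2-fold lower. Of 6 genes of the integrated stress response at 20 CPM or more, 1 was at least 2-fold lower post-depletion (Phgdh, 38.0 CPM in KPF1F2 and 81.1 CPM in KP) and none pre-depletion. Of 11 oxidative stress genes, 3 were at least 2-fold higher post-depletion and 1 pre-depletion, led by the metallothionein gene Mt1 at 1120 CPM in KPF1F2 and 436 CPM in KP post-depletion, and including the ferritin gene Fth1 at 8302 CPM in KPF1F2 and 3441 CPM in KP post-depletion.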

How the data were processed

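Counts as deposited, one UMI number for each feature and barcode, came from Cell Ranger 6.0.0 (per the file headers) against mm10 (per the submitters' processing notes). Run settings, annotation and strand handling were not given in the sources used. A barcode was kept with 1000 UMIs and 500 genes or above, and no more than 20% of its UMIs mitochondrial. Automatic doublet calling marked 0.0276% to 0.156% of cells and did not work, so the highest-scoring cells were removed at 0.8% per 1000 barcodes, which took out 91 to 247 cells per library. Cells of all libraries were clustered together with scanpy 1.11.5 (2000 variable genes, 30 components, 15 neighbours, Leiden resolution 1), and clusters were named when 3 or more genes of a marker list were raised.

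Counts were summed per class and library and scaled to CPM. Log2 folds add 1 CPM to each side; ratios do not. Genes that averaged 20 CPM or above counted as tested. Levels carry exact Poisson, ratios exact conditional binomial and shares Clopper-Pearson 95% intervals, for counting error only. The log2 fold and the ratio interval were tested on simulated counts of the post-depletion epithelial-like pair, drawn with counting error only. Clustering, class naming, doublet removal and thinning were not tested in this way. Named genes were the members, Hspa5, and from each list up to 4 genes with the largest post-depletion genotype fold in its main direction and up to 2 in the other; a selection of these is printed. Likeness used the 3 genes of highest r per member. The members and lists were chosen with earlier results of these data known. Alternatives covered TMM (edgeR 4.0.16) and DESeq2 1.42.0 size factors, filters, clustering, weighting, free RNA and the added CPM; neither package was used to test. An item of the genotype that both genotypes share is not reported here.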

Additional observations from a re-analysis of the deposited data

Results flagged for a closer look

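Some genotype folds between the pre-depletion libraries pointed in opposite directions in 2 cell classes. These differences between classes were not tested, since each class has 1 library per genotype. Log2 folds of KPF1F2 over KP are given, the highest class first. Hspa1a had 5.86 in T cell-like cells and −0.96 in neutrophil-like cells, where the share of cells with a UMI pointed the other way. Hspa8 had 0.98 in B cell-like and −0.30 in neutrophil-like cells, where the median of all genes tested was −0.52. Fos had 0.24 in endothelial-like and −1.21 in T cell-like cells, and Jun 0.17 and −1.84 in the same classes. Egr1 had 2.81 in alveolar macrophage-like and −1.78 in type 1 dendritic-like cells, Ier2 0.57 and −1.23 in those classes. Atf3 had 1.46 in endothelial-like and −0.66 in neutrophil-like cells.

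A signal was also present in the barcodes that the filters and doublet removal left out. There the ratio of KPF1F2 to KP was 5.70 post-depletion and 6.53 pre-depletion for Hspa1a, and 4.94 and 6.39 for Hspa1b. The levels of Hspa1a were 947 and 552 CPM in KPF1F2 post- and pre-depletion, against 166 and 84.5 CPM in KP. These barcodes were left out for depth, gene number, mitochondrial share or doublet score, and the ratios were not tested.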

How the results depend on the processing

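Hspa1a and Hspa1b stayed at least 2-fold higher in KPF1F2 epithelial-like cells under all 12 alternatives in both depletion states (log2 folds of 1.88 to 2.28 and 2.00 to 2.32 post-depletion, 1.71 to 2.12 and 1.68 to 2.15 pre-depletion). Ier2 post-depletion was at least 2-fold lower under 2 of them: −1.02 in cells with a CRE-ERT2 UMI and −1.16 with equal weight per cell. Egr1 pre-depletion changed sign in cells with a CRE-ERT2 UMI (0.09) and without shallow clusters (0.05), an alternative chosen after seeing the data. Log2 medians that moved beyond counting error follow. For heat shock members post-depletion (0.65), the median was 0.78 in CRE-ERT2 cells and 0.56 with 10 CPM added. For immediate-early members post-depletion (−0.36) it was −0.38 with DESeq2 factors, −0.29 at 5000 or more UMIs, −0.51 in CRE-ERT2 cells, −0.70 with equal weight, −0.47 after 5% free RNA was subtracted and −0.27 without shallow clusters. Pre-depletion (−0.14) it was −0.28 with TMM, −0.24 with DESeq2 factors, −0.063 at 10% mitochondrial UMIs or less, −0.044 in CRE-ERT2 cells and −0.56 with equal weight. For post- over pre-depletion in KPF1F2, heat shock members (0.03) had 0.15 with TMM, 0.10 with DESeq2 factors and 0.092 with equal weight; immediate-early members (0.09) had 0.21, 0.15 and 0.25 under those, 0.15 with doublets kept, and changed sign to −0.0042 at 10% mitochondrial UMIs or less, −0.18 in CRE-ERT2 cells and −0.016 with free RNA subtracted. In KP, heat shock members (0.24) had 0.41 with equal weight, and immediate-early members (0.29) had 0.34 with doublets kept, 0.45 with equal weight, 0.25 with free RNA subtracted and 0.33 without shallow clusters. The causes were not tested. Genes at least 2-fold different numbered 497 post-depletion, 477 pre-depletion, 100 between depletion states in KPF1F2 and 52 in KP; with no minimum they numbered 1623, 1940, 1030 and 318, and at 50 CPM or more 258, 226, 42 and 24. TMM moved the median of all genes pre-depletion to −0.04 from 0.10, and that of post- over pre-depletion in KPF1F2 to 0.11 from −0.01. Classes outside the epithelium with both HSP70 genes at least 2-fold higher numbered 7 of 8, and 4 of the 4 classes left at 5000 or more UMIs. Of the member folds in those classes, 2-fold calls were lost for Fos and Jun in B cell-like cells at resolution 0.5 (−0.15 and −0.43), for Fos in T cell-like cells at 5000 or more UMIs (−0.97) and for Dnajb1 in macrophage-like cells with 10 CPM added (0.93). Egr1 in alveolar macrophage-like cells ran from 1.43 with doublets kept to 2.95. Clustering without stress genes, or at resolution 0.5, left the epithelial-like cell counts the same. No paired analysis was possible because each group has 1 library.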
